A study of Mus musculus with 14 samples.

Results

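Messenger RNA of the epithelial sodium channel (ENaC) and of the mineralocorticoid pathway that controls it was examined in mouse kidneys before and after renal ischemia/reperfusion injury (IRI). The set was defined by name as 8 of the 24411 gene symbols in the count files: Scnn1a, Scnn1b, Scnn1g, Nr3c2, Hsd11b2, Sgk1, Nedd4l and Tsc22d3. All 8 were found and all 8 passed the filter on low counts. Bulk RNA of whole kidney from male C57/B6 mice aged 8 weeks was sequenced at day 0 (4 libraries), at day 1 after IRI (5 libraries) and at day 3 after IRI (5 libraries). The mice carried no label of a genetic change or of a drug. Day 0 kidneys are named as controls, and whether their donors had a sham operation is not given in the sources used here. IRI stops and then restores the blood flow of the kidney and is a standard model of acute kidney injury. The labels do not say that each library came from a separate animal, so the p-values measure the spread between these libraries, which may be partly technical.

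ENaC is the sodium channel of the apical membrane of the late distal convoluted tubule, the connecting tubule and the collecting duct principal cell, where the last part of the filtered sodium is taken back. It is built from an alpha, a beta and a gamma subunit, encoded by Scnn1a, Scnn1b and Scnn1g. The ubiquitin ligase encoded by Nedd4l marks the channel for removal from the membrane, and the kinase encoded by Sgk1 restrains that ligase. Aldosterone acts through the mineralocorticoid receptor (Nr3c2), which raises Scnn1a, Sgk1 and Tsc22d3 transcripts. Tsc22d3, also called GILZ, and Sgk1 are also induced by glucocorticoids. The enzyme encoded by Hsd11b2 inactivates glucocorticoid in these cells, so that aldosterone can reach the receptor.

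The count files were aligned to mm10, and positions are given in the same assembly (GRCm38, GENCODE M21). Scnn1g (chr7:121734479-121768475, plus strand) and Scnn1b (chr7:121865038-121918514, plus strand) lie on the same chromosome, with 96562 bases and 1 other annotated gene between them, while Scnn1a lies on another chromosome (chr6:125320659-125344943, plus strand). Sgk1 (chr10:21882184-21999903) and both Nr3c2 (chr8:76899442-77245012) and Hsd11b2 (chr8:105518755-105523988) are on the plus strand, and Tsc22d3 (chrX:140539528-140600659) is on the minus strand. Nedd4l is a protein-coding gene with 34 annotated transcripts. Scnn1b overlaps Cog7 on the opposite strand, and Nedd4l overlaps 2 annotated genes, with 0 on the same strand. Nr3c2 overlaps 3 annotated genes, of which 1, Gm23260, is on the same strand, so strand alone does not separate these 2 genes. The counts used here were strand-specific, and no member had more than 10 reads on the other strand in any library.

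Nedd4l was left out of the promoter search, and no window was used for Scnn1a or Hsd11b2. RefSeq (GRCm38.p6) promoter windows, each from 250 bases before to 50 bases after a start site, were matched by symbol for the other 5 members and 12 start sites. Each was searched on both strands for the steroid receptor palindrome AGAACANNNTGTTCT, for its half-site TGTTCT, which the palindrome contains, and for the AP-1 letters TGANTCA. The palindrome was present in 3 of 32851 windows of this length (0.00913%), and 1 of these was an Sgk1 window, in which it begins 189 bases before the start site. The half-site was in 4 of the members' 12 windows (3 of Sgk1 and 1 of Tsc22d3), against 19% of all windows, and the AP-1 letters were in 0 of the 12, against 7.81% of all windows. These are matches of letters, not of binding, and a window without a match says only that these letters are absent from it. The stretches before the start site are shown for the 2 genes with a match, Sgk1 and Tsc22d3, in the window chosen for its match, and for Scnn1g and Nr3c2 as members without one. They are written 5′ to 3′ on the gene's strand, cut where an annotated exon begins, with matches to the palindrome or the half-site in capitals.
Sgk1 (chr10:21993640-21993889, plus strand): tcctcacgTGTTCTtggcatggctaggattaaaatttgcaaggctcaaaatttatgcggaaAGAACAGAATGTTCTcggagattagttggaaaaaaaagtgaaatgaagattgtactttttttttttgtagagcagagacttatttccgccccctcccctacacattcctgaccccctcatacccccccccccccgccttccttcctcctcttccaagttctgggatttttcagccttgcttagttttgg
Tsc22d3 (chrX:140600660-140600772, minus strand): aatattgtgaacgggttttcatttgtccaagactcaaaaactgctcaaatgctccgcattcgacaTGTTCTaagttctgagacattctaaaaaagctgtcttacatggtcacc
Scnn1g (chr7:121734229-121734478, plus strand): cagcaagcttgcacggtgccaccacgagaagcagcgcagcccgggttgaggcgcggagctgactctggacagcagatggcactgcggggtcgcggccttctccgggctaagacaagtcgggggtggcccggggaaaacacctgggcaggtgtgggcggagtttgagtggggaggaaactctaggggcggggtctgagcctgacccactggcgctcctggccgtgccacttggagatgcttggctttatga
Nr3c2 (chr8:76902080-76902287, plus strand): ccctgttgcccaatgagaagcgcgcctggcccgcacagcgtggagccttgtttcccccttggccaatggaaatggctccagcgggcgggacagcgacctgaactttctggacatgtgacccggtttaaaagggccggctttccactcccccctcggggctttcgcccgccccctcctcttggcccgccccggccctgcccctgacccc
The Sgk1 stretch holds the palindrome and a further half-site, the Tsc22d3 stretch holds 1 half-site, and the Scnn1g and Nr3c2 stretches hold neither. Sgk1 has 6 windows, of which 3 hold no half-site, and Tsc22d3 has 3, of which 2 hold none, while Scnn1g and Nr3c2 have 1 window each.

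Between 12485579 and 20476979 reads per library lay on genes, and the members had from 56 reads (Nr3c2) to 9085 reads (Sgk1) per library. Levels are given as CPM (counts scaled to a fixed total per library), the reads of a gene relative to all reads on genes in its library, with the library size adjusted by TMM so that a few very abundant genes weigh less. Each library name carries a number, of 1 digit in all 4 day 0 libraries, in 3 of 5 at day 1 and in 2 of 5 at day 3, and of 3 digits in replicates 1 and 2 of day 1 and replicates 1, 2 and 3 of day 3. What the number format marks is not given in the sources used here. At day 1 the libraries of the 2 formats stood apart: the chi-square over genes divided by its degrees of freedom was 132 to 234 for pairs of different format and 33.4 to 58.7 for pairs of the same format. At day 3 they did not separate in this way, and the closest pair was replicate 1 with a 3-digit and replicate 4 with a 1-digit number (49.3). Results are also given by format, as for a batch. All 3-digit libraries are from injured kidneys, so a comparison with day 0 within a format can be made for 1-digit libraries only. Where 3-digit libraries are set against day 0, the day 0 libraries have 1-digit numbers, and format and injury cannot be told apart. The markers of the labelled tissue were present: the proximal tubule gene Slc34a1 (4776 CPM), the thick ascending limb gene Umod (5769 CPM) and the principal cell water channel Aqp2 (462.2 CPM) were all abundant on average at day 0.

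At day 0 the members spanned a wide range of transcript levels. Per kilobase of annotated exon, the mean level at day 0 was highest for Hsd11b2 at 94.6 ± 8.01 CPM per kb (SD, n = 4). Sgk1 (39.9 ± 12.7), Scnn1a (39.4 ± 1.92) and Tsc22d3 (35.9 ± 5.53 CPM per kb) followed with ranges that overlapped. Among the channel subunits at day 0, Scnn1a stood above Scnn1b (19.6 ± 0.831 CPM per kb) and Scnn1b above Scnn1g (15.1 ± 0.324 CPM per kb), with no overlap of their libraries. Nedd4l (5.83 ± 0.432) and Nr3c2 (1.84 ± 0.247 CPM per kb) were lowest. At day 1 Sgk1 had the highest mean at 77.1 ± 39.3 CPM per kb (n = 5), and Hsd11b2 had 33.8 ± 9.09 CPM per kb. At day 3 the order of the means was Sgk1 (48.5 ± 14.5), Scnn1a (34.7 ± 12.7), Hsd11b2 (31.8 ± 21.6) and Tsc22d3 (25.4 ± 6.79 CPM per kb, n = 5), and the libraries of these 4 genes overlapped. Both orders depend on the mix of number formats: in the 3-digit libraries Hsd11b2 had a higher mean than Sgk1 at day 1 (42.9 and 34.8 CPM per kb, n = 2) and at day 3 (44.4 and 38.1 CPM per kb, n = 3). In the 1-digit libraries Sgk1 was above Hsd11b2 at day 1 (105 and 27.7 CPM per kb, n = 3) and at day 3 (64.2 and 12.9 CPM per kb, n = 2). The exon lengths are those of GENCODE M21, and lengths of the transcripts in use in the kidney may differ.

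**Figure D1:**
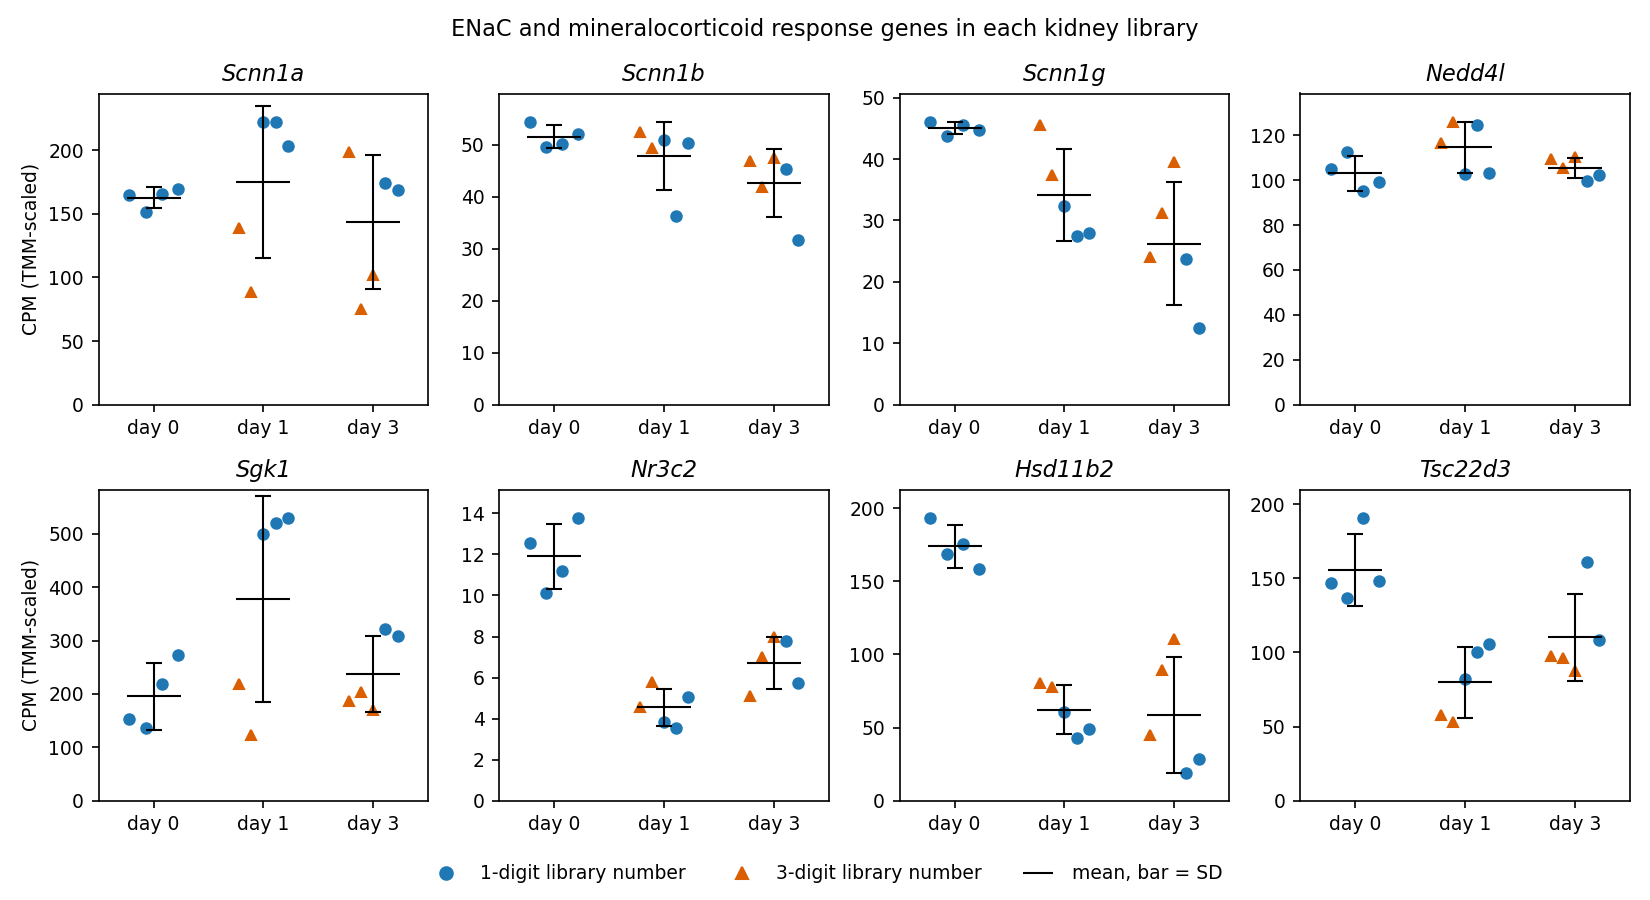
TMM-scaled CPM (linear vertical axis from 0) of each member in each library by day, with the mean and SD in black. Circles are libraries with 1-digit numbers and triangles those with 3-digit numbers. Nr3c2 and Hsd11b2 lie below day 0 in every library of day 1 and day 3, while Scnn1a and Sgk1 split by number format at day 1.

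At day 1 after IRI, the receptor Nr3c2, the glucocorticoid-inactivating enzyme Hsd11b2 and the steroid-induced gene Tsc22d3 fell, and no member rose by the main test. The 3 channel subunits and Nedd4l did not pass the test, and Sgk1 was higher on average but missed it. Thus 3 of 8 members were called, all lower. Of the 14300 genes tested, 42.1% were called at day 1, of which those called lower were 18.7% and those called higher 23.3% of all genes tested. The same 3 members had day 1 libraries that did not overlap those of day 0, as did 42% of all genes. The median log2 fold change of the members was -0.25 and that of all genes was 0.01. Since the RNA is from whole kidney, fewer cells that express a gene and less of its RNA per cell cannot be told apart.

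By day 3 after IRI, Nr3c2 and Hsd11b2 were still below day 0 and the gamma subunit gene Scnn1g was lower as well. Again 3 of 8 members were called, all lower, against 33.3% of all genes called, 13.8% called lower and 19.5% called higher. Those 3 genes and Scnn1b had day 3 libraries that were all below the day 0 libraries, and 33.4% of all genes had groups that did not overlap. The median log2 fold change of the members was -0.38 against 0.05 for all genes. The comparisons of day 1 and day 3 share the day 0 libraries, so they are not independent of each other.

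Among the channel subunits, Scnn1a encodes alpha, which is needed for a channel to form. Its level at day 0 was 164.6, 151.3, 165.8 and 169.4 CPM in replicates 1 to 4. At day 1 it was 138.8 and 88.2 CPM in the 2 libraries with 3-digit numbers and 222.3, 221.9 and 203.6 CPM in the 3 with 1-digit numbers. The day 1 libraries therefore lay on both sides of day 0, the 1-digit libraries all above it and the 3-digit libraries all below it. Day 3 levels were 198.2, 75.0 and 101.8 CPM with 3-digit numbers and 174.1 and 168.7 CPM with 1-digit numbers, and the groups overlapped. The log2 fold change against day 0 was 0.10 ± 0.29 (SE) at day 1 (adjusted p = 0.795, edgeR's quasi-likelihood test) and -0.18 ± 0.29 at day 3 (adjusted p = 0.652). Among libraries with 1-digit numbers alone, Scnn1a rose at day 1 by a log2 fold change of 0.44 (adjusted p = 0.00234), whereas the value for the 3-digit libraries of day 1 against day 0 was -0.52 (adjusted p = 0.242).

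Scnn1b, the beta subunit gene, had 49.5 to 54.4 CPM at day 0. At day 1 replicate 4 had 36.3 CPM and the other 4 libraries had 49.4 to 52.4 CPM, inside or near the day 0 range. Day 3 levels were 46.8, 42.0, 47.4, 45.3 and 31.7 CPM, each below the lowest day 0 library. Its log2 fold change was -0.11 ± 0.14 at day 1 (adjusted p = 0.552) and -0.27 ± 0.14 at day 3 (adjusted p = 0.139), so neither passed the test. With the number format as a term in the fit, the day 3 value was -0.39 (adjusted p = 0.0376).

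Scnn1g, the gamma subunit gene, was the subunit whose fall passed the test. Its day 0 libraries lay close together at 46.1, 43.8, 45.5 and 44.8 CPM. At day 1 the levels were 45.5 and 37.3 CPM with 3-digit numbers and 32.4, 27.4 and 28.0 CPM with 1-digit numbers, and 4 of the 5 libraries were below day 0. At day 3 the levels were 24.1, 31.3, 39.5, 23.8 and 12.6 CPM, all below day 0. The log2 fold change was -0.40 ± 0.25 at day 1 (adjusted p = 0.202) and -0.78 ± 0.25 at day 3 (adjusted p = 0.0263). Within 1-digit libraries it was also called at day 1 (-0.59, adjusted p = 0.0161), while the 3-digit libraries against day 0 gave -0.12 (adjusted p = 0.610). The day 3 fall was called within 1-digit libraries (-1.29, adjusted p = 0.000659), and setting the 3-digit libraries against day 0 gave -0.51 (adjusted p = 0.0308). The day 3 call was close to the threshold: leaving out any 1 of the 4 day 0 libraries, or day 3 replicate 1 or 4, gave adjusted p from 0.0518 to 0.0591, with log2 fold changes of -0.79 to -0.74, and scaling to total counts in place of TMM gave -0.63 (adjusted p = 0.0892).

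Nedd4l, the ligase that removes ENaC from the membrane, did not pass the test at either day. Its level was 95.2 to 112.7 CPM at day 0, 102.6 to 126.0 CPM at day 1 and 99.7 to 110.4 CPM at day 3, and the days overlapped. The log2 fold change was 0.15 ± 0.10 at day 1 (adjusted p = 0.244) and 0.03 ± 0.10 at day 3 (adjusted p = 0.820), and the sign of the day 3 value depended on the processing.

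Sgk1, the kinase that restrains Nedd4l, had 153.5, 136.8, 219.0 and 272.4 CPM at day 0. Its 1-digit libraries of day 1 reached 499.9, 519.2 and 529.9 CPM, above every day 0 library, whereas the 3-digit libraries of that day had 217.9 and 123.1 CPM, inside or below the day 0 range. At day 3 the levels were 320.9 and 308.9 CPM with 1-digit numbers and 186.5, 203.1 and 170.6 CPM with 3-digit numbers. Its log2 fold change was 0.95 ± 0.39 at day 1 (adjusted p = 0.0622) and 0.28 ± 0.38 at day 3 (adjusted p = 0.587). Within the 1-digit libraries Sgk1 rose at both days, with 1.43 at day 1 (adjusted p = 0.000206) and 0.71 at day 3 (adjusted p = 0.0243). The 3-digit libraries gave -0.19 at day 1 (adjusted p = 0.625) and -0.06 at day 3 (adjusted p = 0.873) against day 0. Without day 1 replicate 1 or 2, both with 3-digit numbers, the day 1 value was 1.07 (adjusted p = 0.0426) or 1.18 (adjusted p = 0.00860), and DESeq2 called it on all libraries (0.97, adjusted p = 0.0327).

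Nr3c2, the mineralocorticoid receptor gene, had 12.5, 10.1, 11.2 and 13.8 CPM at day 0. It fell to 4.6, 5.8, 3.8, 3.5 and 5.1 CPM at day 1, and every library was below day 0 in both number formats. At day 3 it was 5.1, 7.0, 8.0, 7.8 and 5.7 CPM, still below every day 0 library. Against day 0 the log2 fold change was -1.38 ± 0.20 at day 1 (adjusted p = 0.000224), which is 0.383 of the day 0 level, and -0.83 ± 0.20 at day 3 (adjusted p = 0.00728), which is 0.564 of it. Within 1-digit libraries the values were -1.50 at day 1 and -0.79 at day 3, and the 3-digit libraries set against day 0 gave -1.20 and -0.83, all called.

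Hsd11b2, the enzyme gene, had 193.5, 168.7, 175.8 and 158.5 CPM at day 0. At day 1 it was 80.4 and 77.4 CPM with 3-digit numbers and 60.9, 42.8 and 49.0 CPM with 1-digit numbers, and no library reached the day 0 range. By day 3 its libraries spread from 18.9 to 110.4 CPM, with 45.1, 89.5 and 110.4 CPM in the 3-digit libraries above 18.9 and 28.4 CPM in the 1-digit libraries. The log2 fold change was -1.49 ± 0.40 at day 1 (adjusted p = 0.00939) and -1.57 ± 0.40 at day 3 (adjusted p = 0.00922), or 0.357 and 0.336 of the day 0 level. The fall was called within 1-digit libraries, with -1.74 at day 1 (adjusted p = 1.63e-05) and -2.86 at day 3 (adjusted p = 5.37e-06). The 3-digit libraries set against day 0 gave -1.14 at day 1 (adjusted p = 0.0116) and -1.09 at day 3 (adjusted p = 0.00906).

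Tsc22d3, the steroid-induced GILZ gene, had 146.9, 137.0, 190.9 and 148.0 CPM at day 0. At day 1 it was 58.1 and 52.9 CPM with 3-digit numbers and 82.0, 100.2 and 105.5 CPM with 1-digit numbers, all below day 0. At day 3 it was 97.3, 96.4 and 87.8 CPM with 3-digit numbers and 161.3 and 108.7 CPM with 1-digit numbers, and replicate 4 lay inside the day 0 range. The log2 fold change was -0.97 ± 0.23 at day 1 (adjusted p = 0.00424) and -0.50 ± 0.23 at day 3 (adjusted p = 0.102). For the 3-digit libraries of day 3 against day 0 it was called (-0.73, adjusted p = 0.00261), and without day 3 replicate 4 the value over all libraries was -0.67 (adjusted p = 0.0316).

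**Figure D2:**
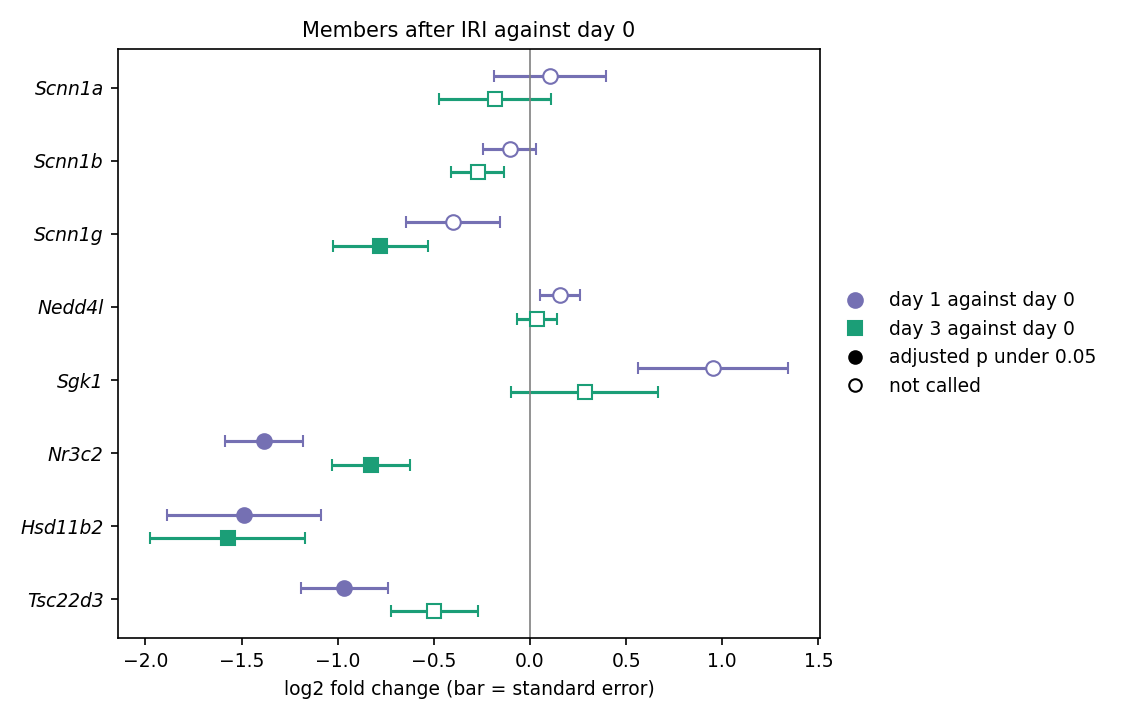
Log2 fold change of each member at day 1 and day 3 against day 0 from edgeR's fit over all 14 libraries. Bars are standard errors and filled symbols have an adjusted p under 0.05. Nr3c2 and Hsd11b2 were called lower at both days, Tsc22d3 at day 1 and Scnn1g at day 3.

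Between day 1 and day 3, 0 of 8 members were called by edgeR's quasi-likelihood test, against 15.9% of all genes. At an unadjusted p under 0.05 there were 2 of 8 members, against 4579 of the 14300 genes tested. The 2 members were Nr3c2 with a log2 difference of 0.56 ± 0.19 (adjusted p = 0.0641) and Tsc22d3 with 0.47 ± 0.21 (adjusted p = 0.149), both higher at day 3. DESeq2 called 1 of them, Nr3c2 (adjusted p = 0.0329). The levels of all 8 members overlapped between these days. The median log2 difference of the members was -0.14 against 0.02 for all genes. Among 1-digit libraries alone, where 36% of all genes were called, 5 members were called: Scnn1a (-0.35), Scnn1g (-0.70), Sgk1 (-0.73) and Hsd11b2 (-1.12) were lower at day 3 than at day 1 and Nr3c2 (0.70) was higher. Among 3-digit libraries, where 16% of all genes were called, Tsc22d3 (0.76, adjusted p = 0.0123) was called.

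Within day 1, the libraries with 3-digit numbers had less Scnn1a, Sgk1 and Tsc22d3 than those with 1-digit numbers. The difference (3-digit minus 1-digit, log2) was -0.93 ± 0.31 for Scnn1a (adjusted p = 0.0338), -1.60 ± 0.29 for Sgk1 (adjusted p = 0.00150) and -0.79 ± 0.19 for Tsc22d3 (adjusted p = 0.00689). The libraries of these 3 did not overlap between formats, but the share of all genes without such overlap was not counted. Scnn1g (0.50, adjusted p = 0.110) and Hsd11b2 (0.63, adjusted p = 0.100) were higher in both 3-digit libraries but did not pass the test. The 3 called members stand against 35% of all genes called between the formats at day 1. The difference rests on 2 libraries: without day 1 replicate 2 the Scnn1a value was -0.64 (adjusted p = 0.280) and the Tsc22d3 value -0.72 (adjusted p = 0.0765), and Scnn1a was also not called without any 1 of the 3 libraries with 1-digit numbers (adjusted p from 0.0550 to 0.0701).

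Within day 3, Scnn1g and Hsd11b2 were higher in the 3-digit libraries, by 0.80 ± 0.24 (adjusted p = 0.0395) and 1.79 ± 0.31 (adjusted p = 0.00524), with no overlap. Nedd4l, which was not called (0.10, adjusted p = 0.579), did not overlap between formats either. The share of all genes without such overlap was not counted. Sgk1 (-0.75, adjusted p = 0.0645) and Tsc22d3 (-0.53, adjusted p = 0.0599) were lower in every 3-digit library but missed the threshold. Sgk1 was called without day 0 replicate 4 or without day 1 replicate 1 or 2 (adjusted p from 0.0444 to 0.0485). Of all genes, 18.5% differed between formats at day 3. The Scnn1g call depended on single libraries: its difference was 0.39 (adjusted p = 0.347) without day 3 replicate 5 and 0.61 (adjusted p = 0.134) without replicate 3, and leaving out day 3 replicate 2, day 1 replicate 5 or day 0 replicate 1, 2 or 3 gave adjusted p from 0.0521 to 0.0787. Without day 3 replicate 1, Scnn1a was called lower in the 3-digit libraries (-0.95, adjusted p = 0.00446).

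The format differences of day 1 and day 3 were compared directly. By edgeR's quasi-likelihood test 0 of 8 members were called, against 17.6% of all genes. An unadjusted p under 0.05 was found for 2 of 8 members and for 4710 of the 14300 genes tested. The 2 members were Sgk1 (0.85 ± 0.39, adjusted p = 0.149) and Hsd11b2 (1.15 ± 0.42, adjusted p = 0.0723), and DESeq2 called 1 of them, Hsd11b2 (adjusted p = 0.0291). Without day 3 replicate 1 the Hsd11b2 value was 1.45 (adjusted p = 0.00429).

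**Figure D3:**
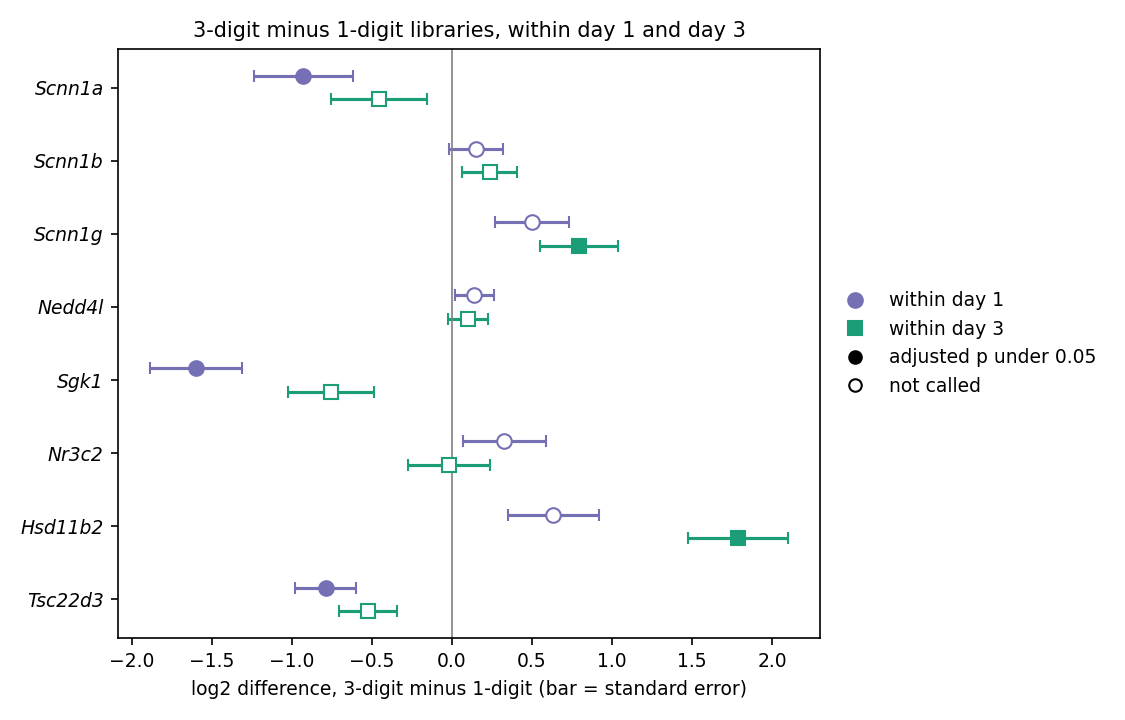
Log2 difference between libraries with 3-digit and 1-digit numbers for each member, within day 1 (2 against 3 libraries) and within day 3 (3 against 2 libraries). Bars are standard errors and filled symbols have an adjusted p under 0.05. Scnn1a, Sgk1 and Tsc22d3 lie below 0 at both days, and Hsd11b2 and Scnn1g above 0.

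Genes that mark the cells in which ENaC is expressed were set beside the members. Of 7 principal cell markers, 0 rose and 2 fell at day 1 and 1 rose and 3 fell at day 3, with median log2 fold changes of -0.35 and -0.96. Of all genes, 18.7% were called lower at day 1 and 13.8% at day 3, and with total counts 1 marker in place of 2 fell at day 1. Their summed level was 1009 to 1295 CPM at day 0, 644 to 1135 CPM at day 1 and 608 to 1443 CPM at day 3. At day 1 it was 644 to 781 CPM in the 1-digit libraries and 1117 to 1135 CPM in the 3-digit libraries, while at day 3 the ranges of 623 to 940 CPM and 608 to 1443 CPM overlapped. Aqp2 and Tfcp2l1 had the highest levels in this sum. Tfcp2l1 rose from a mean of 354 CPM at day 0 to 604 CPM at day 3, so the sum does not follow the markers that fell. The collecting duct water channel gene Aqp4 fell by 2.26 at day 1 and by 2.71 at day 3 on the log2 scale (adjusted p = 0.0349 and 0.0204). Against 122 CPM at day 0, its day 1 mean was 6.34 CPM with 1-digit and 53.8 CPM with 3-digit numbers (format difference 3.10, adjusted p = 0.00328). The vasopressin receptor gene Avpr2 fell by 1.62 and by 1.99 (adjusted p = 0.0132 and 0.00623), and the basolateral water channel gene Aqp3 fell by 0.78 at day 3 (adjusted p = 0.00842). Tfcp2l1, a transcription factor of the collecting duct, rose at day 3 by 0.77 (adjusted p = 0.0158).

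Of 7 markers of the distal convoluted and connecting tubule, 1 rose and 3 fell at day 1, and 0 rose and 4 fell at day 3, against the same shares of all genes. The 1 that rose was the calcium channel gene Trpv5 (0.73, adjusted p = 0.0416), and with total counts it was not called. The calcium-binding protein gene Calb1 fell from 476 ± 94.7 CPM (n = 4) to 129 ± 22.4 CPM at day 1 and 66.3 ± 24.2 CPM at day 3 (n = 5 each). The sodium/calcium exchanger gene Slc8a1 fell by 2.53 and 2.14 on the log2 scale (adjusted p = 0.000151 and 0.000633), Emx1 fell by 1.48 at day 1 (adjusted p = 0.00332) and Pvalb, a marker of the early distal convoluted tubule, fell by 5.24 at day 3 (adjusted p = 0.00162). Mean Pvalb was 48.1 CPM at day 0 and 1.28 CPM at day 3. Of 7 intercalated cell markers, 2 fell at day 1 and 4 at day 3, and none rose. Of 5 thick ascending limb markers 4 fell at each day, and of 6 proximal tubule markers 2 fell at each day, but 0 at day 3 when scaled to total counts. The summed proximal tubule level was 7263 to 11392 CPM in the 1-digit and 2529 to 3163 CPM in the 3-digit libraries at day 1, and 1766 to 2639 CPM and 4480 to 9979 CPM at day 3, so it moved with the number format in opposite directions. The leukocyte markers were called higher for 3 of 6 genes at day 1 and 4 of 6 at day 3, the endothelial markers for 1 of 4 and 0 of 4, and the injured tubule markers for 2 of 2 and 1 of 2, against 23.3% and 19.5% of all genes called higher. The leukocyte markers not called at day 1 were lower on average: Adgre1 (-2.04, adjusted p = 0.0928), Lyz2 (-1.42, adjusted p = 0.107) and Ptprc (-0.28, adjusted p = 0.364). The summed leukocyte level was 31.0 to 86.4 CPM at day 0, 42.2 to 101 CPM at day 1 and 112 to 387 CPM at day 3. The injured tubule marker Havcr1, which encodes KIM-1, split by number format at day 1: it had 30.5 to 151 CPM in the 1-digit and 1860 to 3014 CPM in the 3-digit libraries, against 89.8 to 119 CPM at day 0 (format difference 5.01 on the log2 scale, adjusted p = 0.000370). Its day 1 call over all libraries therefore rests on the 3-digit libraries. Urothelium markers had a summed level of 1.82 to 45.4 CPM at day 0, 4.84 to 91.7 CPM at day 1 and 1.01 to 34.6 CPM at day 3, with Upk1b, Upk2 or Upk3a at 0 in some libraries, and of these 5 markers 0 were called at day 1 and 1 (Upk2, lower) at day 3. The part of cell makeup in the members' changes was not tested.

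Of 14 genes for ENaC regulators, which include proteases, protease inhibitors, kinases and their partners, 14-3-3 proteins, a ubiquitin ligase and deubiquitinases, 3 rose and 4 fell at day 1 and 2 rose and 2 fell at day 3, so 7 and 10 were not called. The called counts stand against 42.1% and 33.3% of all genes, and with total counts the numbers that rose were 2 and 3. The median log2 fold changes were 0.11 and 0.06. St14, which encodes the membrane protease matriptase, rose from 83.7 ± 7.99 CPM (n = 4) to 184 ± 37.6 CPM at day 1 and 154 ± 46.4 CPM at day 3 (log2 fold changes of 1.14 and 0.88, adjusted p = 0.00141 and 0.00808). Spint1, an inhibitor of matriptase, rose from 123 ± 3.98 to 248 ± 58.4 CPM at day 1 (1.01, adjusted p = 0.00123). Prss8 encodes prostasin, a protease that activates the gamma subunit, and fell by 0.68 at day 1 (adjusted p = 0.00687) and by 0.67 at day 3 (adjusted p = 0.0101). The deubiquitinase genes Usp2 and Usp10 also fell, Usp2 by 1.09 at day 1 (adjusted p = 0.0184) and Usp10 by 0.42 at day 1 (adjusted p = 0.0143) and 0.64 at day 3 (adjusted p = 0.00179).

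Of 12 genes of steroid reception, metabolism and response, 4 rose and 2 fell at day 1 and 3 rose and 1 fell at day 3, with medians of 0.31 and 0.17. These 6 and 4 called genes stand against 42.1% and 33.3% of all genes. Pdk4, Per1, Zbtb16 and Fkbp5 are known to be induced by glucocorticoids, among other signals. The pyruvate dehydrogenase kinase gene Pdk4 rose from 48.4 ± 11.5 CPM to 1293 ± 825 CPM at day 1 and 649 ± 545 CPM at day 3 (log2 fold changes of 4.74 and 3.74, adjusted p = 0.000550 and 0.00244). The clock gene Per1 rose by 2.01 at day 1 (adjusted p = 0.00515), and Zbtb16 by 1.02 and 1.75 (adjusted p = 0.0374 and 0.00340). Fkbp5, a co-chaperone of steroid receptors, rose by 1.34 at day 3 (adjusted p = 0.0126). The glucocorticoid receptor gene Nr3c1 fell by 0.58 at day 1 (adjusted p = 0.00915), and the co-chaperone gene Fkbp4 fell by 0.76 at day 1 (adjusted p = 0.0239) and by 1.33 at day 3 (adjusted p = 0.00149). Klf9, Ndrg2, Errfi1 and Ddit4, also steroid-induced, were not called at either day, with values from -0.60 (Ndrg2 at day 3) to 0.40 (Ddit4 at day 1). Tsc22d3, listed among the members above, was lower at day 1 in the same libraries. Between the formats at day 1, 4 of these 12 genes were lower in the 3-digit libraries and 0 higher, a share of called genes near the 35% of all genes. Their median difference was -0.83 against 0.03 for all genes, and Per1 was among them (-2.12, adjusted p = 0.000359). Klf9, not called against day 0, had a day 1 mean of 154 CPM with 1-digit and 61.9 CPM with 3-digit numbers, against 153 CPM at day 0. Within day 3, 3 of the 12 genes were lower and 1 higher in the 3-digit libraries, against 18.5% of all genes called.

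Of 11 genes of distal sodium and potassium transport, which include the regulators Wnk1, Wnk4, Klhl3 and Stk39, 0 rose and 7 fell at day 1 and 0 rose and 6 fell at day 3. Of all genes, 18.7% and 13.8% were called lower. The list had medians of -0.79 and -0.72 against 0.01 and 0.05 for all genes, and its counts of 7 and 6 were the same with RLE factors and with total counts. The potassium channel gene Kcnj1, which encodes ROMK, fell from 368 ± 55.7 CPM to 47.0 ± 43.6 CPM at day 1 and 101 ± 52.3 CPM at day 3 (adjusted p = 0.00217 and 0.0279). The day 1 mean combines 15.3 CPM with 1-digit and 94.4 CPM with 3-digit numbers (format difference 2.62, adjusted p = 0.000306), all below day 0. Klhl3, an adaptor for removal of WNK kinases, fell by 2.30 at day 1, from 11.1 to 2.24 CPM (adjusted p = 0.000426), and the kinase gene Wnk4 by 1.24 (adjusted p = 0.000759). Slc12a3, which encodes the thiazide-sensitive sodium chloride cotransporter, fell by 1.73 at day 3 (adjusted p = 0.000446). Kcnma1, which encodes the BK potassium channel, fell by 1.60 at day 3 (adjusted p = 0.00480), at low levels of 3.13 CPM at day 0 and 1.03 CPM at day 3. Further genes named from the lists also differed between formats, so their values over all libraries combine unequal levels. At day 1 Spint1, Usp2, Nr3c1, Slc12a3 and Pvalb were called lower in the 3-digit libraries and Avpr2, Slc8a1 and Wnk4 higher, with differences from -3.79 (Pvalb) to 1.84 (Avpr2). At day 3 Per1 and Pdk4 were called lower there and Fkbp4, Klhl3, Trpv5, Slc8a1 and Emx1 higher, from -2.07 (Pdk4) to 1.26 (Klhl3).

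**Figure D4:**
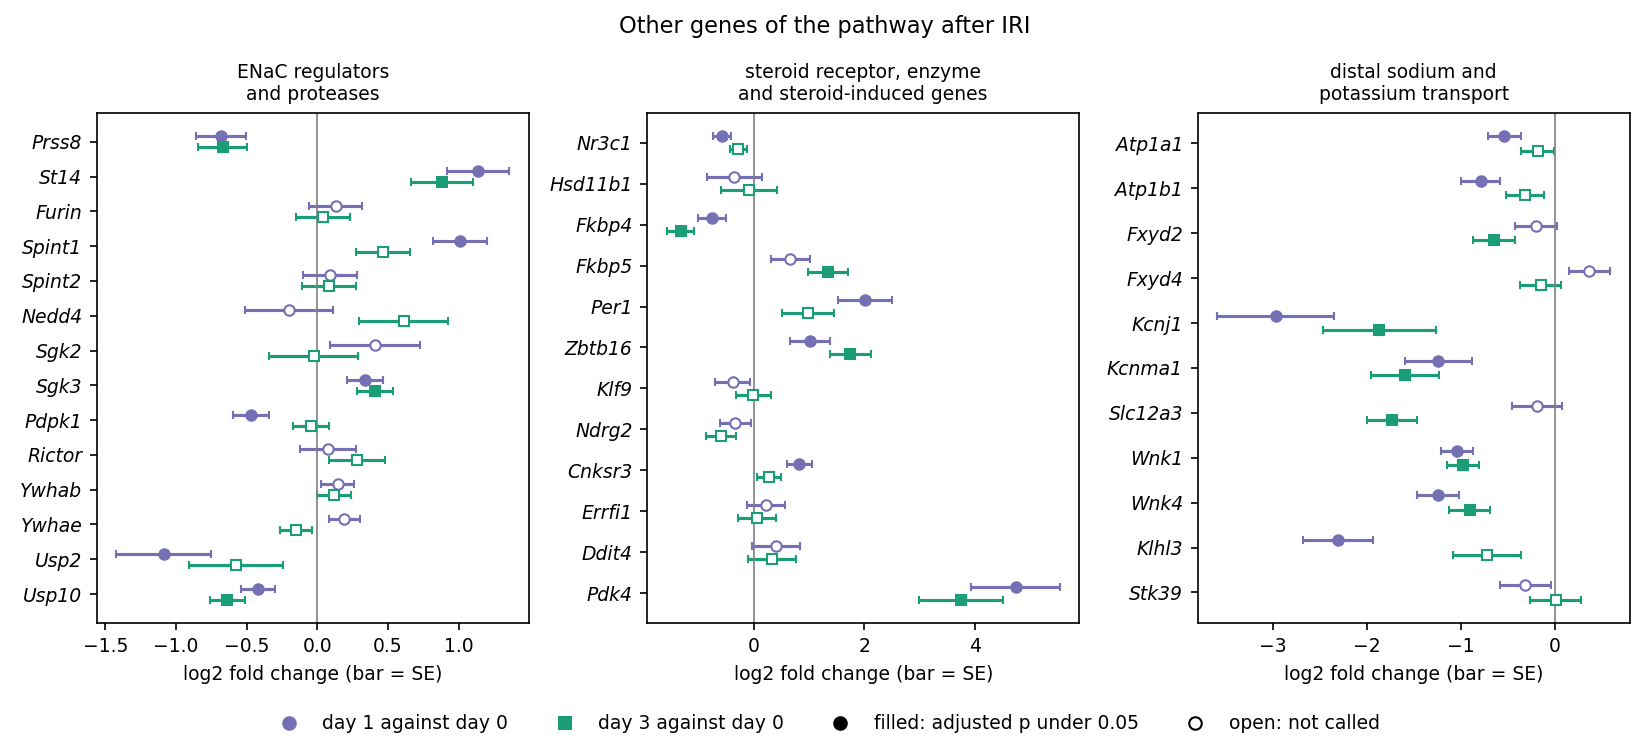
Log2 fold change with standard error at day 1 and day 3 against day 0 for each gene of the 3 pathway lists. Filled symbols have an adjusted p under 0.05. In the transport list none was called higher, while the regulators and the steroid genes were called in both directions.

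The pattern of each member over the 14 libraries was compared with 13318 genes by Pearson's correlation of log2 CPM, given as a description, since the libraries share days and number formats. The genes most like Hsd11b2 were Rhcg (r = 0.968), an ammonia transporter gene of the collecting duct, and Pde1a (0.963). Those most like Nr3c2 were Tbc1d4 (0.958) and Atp2a3 (0.957), those most like Scnn1a were Fuca1 (0.954) and Foxo1 (0.911), and those most like Sgk1 were Rcn2 (0.934) and Rasa2 (0.922). Scnn1g was most like Fastkd1 (0.932) and Ggt6 (0.928), and Scnn1b most like Smim6 (0.858) and Naa30 (0.856). Among the members, Scnn1g correlated with Hsd11b2 (0.84) and with Scnn1b (0.82), and its correlation with Scnn1a was -0.25. Scnn1a correlated with Sgk1 (0.66). The gamma and alpha subunit genes thus had different patterns over these libraries, with the highest Scnn1g and the lowest Scnn1a levels of day 1 both found in the 3-digit libraries.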

How the data were processed

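Whole-kidney RNA (TRIzol, Illumina TruSeq) gave 14 libraries. Per the labels' processing notes the authors used Trimmomatic, STAR and mm10. Versions, parameters and annotation are not given in the sources used here. The deposited values are STAR's raw counts per gene symbol, which leave out reads that map to several places. Column 4, the strand that held 98.5% to 98.7% of strand-assigned reads, was used. The STAR rows that name no gene held 29.0% to 38.3% of reads and were left out. No library repeated another: between replicates the chi-square divided by its degrees of freedom was 5.70 or more.

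In R 4.3.3, edgeR 4.0.16 and limma 3.58.1, 14300 genes passed filterByExpr, were scaled by TMM and were tested with edgeR's quasi-likelihood test, 1 term per day over all 14 libraries. Number format was tested with 1 term per day and format. A Benjamini-Hochberg adjusted p under 0.05 over all genes was called. Standard errors came from the F value, and a prior count of 2 entered log2 CPM. On simulated counts with 200 genes changed by a log2 fold change of 2 at day 1, 194 were recovered with 14 false calls. No difference by number format was put into these counts. Recovery of smaller changes, or among libraries that differ by format as at day 1, was not tested.

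The members and lists were chosen with earlier results of these data known. Named from each list were up to 3 called genes of the largest change per comparison with day 0. For 6 members the 2 genes of highest correlation (mean at least 1 CPM) were named. Format differences of list genes, Havcr1, Tfcp2l1, Trpv5, Nr3c1, Fkbp4, the uncalled steroid-induced genes, the uncalled leukocyte markers and the day 1 values of Prss8 and Usp10 were chosen after their values were seen. Alternatives were the unstranded column, RLE factors, total counts, no filter, a minimum of 10 counts per library, a prior count of 0.5, DESeq2 1.42.0, only the 2 days compared, a replicate block, number format as a term, 1-digit libraries alone, 3-digit libraries against day 0, and leaving out each library.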

Additional observations from a re-analysis of the deposited data

Results flagged for a closer look

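One library stood apart from the rest of its group for a member. Scnn1b in day 1 replicate 4 had a log2 CPM of 5.19, and its gap to the nearest of the other 4 libraries was 0.836 of the range of the group. Of 24 groups of members tested in this way, about 1.2 would be marked by chance. In this library Scnn1g (27.4 CPM), Nr3c2 (3.5 CPM) and Hsd11b2 (42.8 CPM) were also the lowest of day 1, and the cause was not tested.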

How the results depend on the processing

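The calls against day 0 of Nr3c2 and Hsd11b2 at both days and of Tsc22d3 at day 1, and between formats of Sgk1 at day 1 and Hsd11b2 at day 3, kept their direction and their side of the threshold under each alternative run for them (11 against day 0, 6 between formats) and without any 1 library. The fits of only 2 days, the replicate block, the format term and single formats were not run between formats. Over all 48 results for single members, 361 of 408 alternative values kept direction and side of the threshold, 2 lost a call, 27 gained one and 18 changed sign. Of 672 values without 1 library the corresponding numbers were 624, 18, 13 and 17. With total counts in place of TMM, Scnn1g at day 3 (adjusted p = 0.0892) and Scnn1a between formats at day 1 (adjusted p = 0.0598) were not called. Total counts moved the median of all genes from 0.05 to 0.19 at day 3 against day 0, from 0.02 to 0.17 at day 3 against day 1, from 0.03 to 0.24 between formats at day 1 and from -0.02 to -0.19 in their difference between days. The cause of changed values was not tested.

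The number of members called at day 1 (3) was 5 with number format as a term and 6 with 1-digit libraries only, and at day 3 (3) it was 5 with format as a term. In these fits 55.9%, 61.3% and 48.2% of all genes were called. Between day 3 and day 1 it was 0, but 2 with total counts, 1 with DESeq2, 2 with format as a term, 5 with 1-digit and 1 with 3-digit libraries, and 0 to 2 without 1 library. The first 5 of these fits called 15.4%, 23.1%, 19.7%, 36% and 16% of all genes. Between formats at day 3 DESeq2 called 4 members (2 in the main test), and for the difference of the formats between days it called 1, against 24.7% and 22.5% of all genes. Without 1 library, 1 to 4 members were called between formats at day 1, 1 to 3 at day 3 and 0 to 1 for the difference. Of all genes, 8119 changed at day 3 with 1-digit libraries only (4757 in the main test). Between day 3 and day 1 it was 831 with only the 2 days in the fit, 5194 with 1-digit libraries and 1269 to 3350 without 1 library (2276 in the main test). Without 1 library, 1997 to 5602 genes differed by format at day 1, 91 (without day 3 replicate 5) to 4771 (without day 3 replicate 1) at day 3, and 1260 to 3148 in the difference.

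Signs that changed were of values that were not called in the main test. At day 1, Scnn1a was -0.047 with the replicate block and -0.52 with 3-digit libraries, and Sgk1 was -0.19 with 3-digit libraries. At day 3, Nedd4l was -0.0048 with no filter, -0.039 with format as a term and -0.0097 with 1-digit libraries, Scnn1a was 0.22 with format as a term and 0.093 with 1-digit libraries, and Sgk1 was -0.064 with 3-digit libraries. Between day 3 and day 1, total counts gave 0.033 for Nedd4l and 0.081 for Hsd11b2, and 3-digit libraries gave 0.045 for Hsd11b2, 0.14 for Scnn1a and 0.13 for Sgk1. Total counts gave 0.044 for Nr3c2 between formats at day 3 and -0.071 for Scnn1b in the difference, for which Nedd4l was 0.0058 with RLE factors and 0.0064 with DESeq2. Without 1 library, Nedd4l ranged from -0.022 to 0.079 at day 3 and Hsd11b2 from -0.45 to 0.14 between day 3 and day 1. Between formats at day 3, Nr3c2 ranged from -0.24 to 0.22 and Scnn1b from -0.018 to 0.52. In the difference, Nedd4l ranged from -0.14 to 0.017, Scnn1a from -0.027 to 0.85, Scnn1b from -0.16 to 0.36, Scnn1g from -0.10 to 0.83 and Tsc22d3 from -0.0062 to 0.58.

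Replicate numbers were not used to pair the libraries in the main test. Correlations of same-numbered libraries ranged from -0.094 to 0.068 between day 0 and day 1, from 0.0092 to 0.26 between day 0 and day 3 and from -0.17 to 0.23 between day 1 and day 3. Replicate numbers go with number format within day 1 and day 3, so these correlations cannot decide whether libraries were paired. With a replicate block 5162 genes changed at day 1, 4103 at day 3 and 2044 between them, with 3, 4 and 0 members, the added one being Tsc22d3 at day 3 (-0.58, adjusted p = 0.0447).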
